A study of Mus musculus with 178 samples.

Results

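The blood of mice that responded to an antibody against PD-1 was compared with that of mice that did not, at the last of 4 bleeds. The 45 libraries of Day 24 were taken by the day and the response in their labels, and they are 45 of the 178 bulk RNA-seq libraries of the series. Of these, 15 came from responders (libraries 134 to 148) and 30 from nonresponders (libraries 149 to 178), with 1 library per mouse. Both groups were C57BL/6J mice, 6 to 8 weeks old, that carried 4MOSC1 tumors, a carcinogen-derived oral squamous carcinoma line placed in the mouth. All mice received the anti-PD-1 antibody by injection into the abdomen every 3 days, and the groups were named by the outcome, set from tumor size under RECIST criteria. No untreated mice were among these libraries, and the groups were not assigned at random. Retro-orbital blood went straight into TRIzol, and its polyA RNA was sequenced.

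PD-1 is an inhibitory receptor of activated T cells, and an antibody that blocks it can release these cells against a tumor. Whole blood, however, is a mixture. Most of its RNA comes from reticulocytes, young red cells that still make haemoglobin, and the rest from platelets, granulocytes, monocytes and lymphocytes. In a bulk library, fewer cells of a type and less RNA per cell cannot be told apart.

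Total counts per library ranged from 45573400 to 67814500, and haemoglobin genes took 76.3% to 88.0% of them. None of 6 library measures (total count, haemoglobin share, mitochondrial share, TMM factor, genes with a count, share of the 10 most abundant other genes) differed between the groups by a two-sided permutation test (lowest adjusted p = 0.711, and 0.382 without library 166). One library stood apart. Library 166, from a nonresponder, had a TMM factor of 0.0893 and 12605 genes with a count, against at least 14753 genes in each other library. The TMM factor is the scaling that edgeR gives a library from its bulk of genes, and a low factor marks a library with most counts in few genes. In library 166 the heme enzyme gene Alas2 alone took 15.8% of the counts outside haemoglobin, against a median of 6.82% in the other nonresponders. The main counts of calls below are given with and without it. Factors under 0.75 were also found in 4 responders (libraries 145, 144, 142 and 137) and in 2 further nonresponders (libraries 175 and 169), and a selection without these 7 libraries was added after the data were seen. Ear tags had 4 digits in 11 of 15 responders and in 7 of 30 nonresponders, and otherwise 3 digits. This tag series was treated as a possible batch that response partly follows. In 0 of 178 libraries did the Y-linked genes exceed Xist, although the methods name mice of both sexes. Blood markers fitted the label, with the defining genes of platelets, B cells, T cells and neutrophils detected in both groups.

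With all 45 libraries, edgeR called 24 of 12469 genes higher and 13 lower in responders by both thresholds used here, an adjusted p no higher than 0.05 together with a 1.5-fold change. This is 0.192% and 0.104% of the genes tested. At the adjusted p alone, 425 genes rose (3.41%) and 641 fell (5.14%), so that most of the differences were small. Without library 166 the calls past both thresholds were 83 higher (0.666%) and 12 lower (0.0963%), and 36 of the first 37 were among them in the same direction. At the adjusted p alone they were then 1572 higher (12.6%) and 1102 lower (8.84%). Without the 7 libraries of low TMM factor, 231 genes rose (1.83%) and 2.48% of those tested fell, and 9 passed both thresholds. With tag series as a covariate, 39 rose (0.313%) and 83 fell (0.666%), and with library 166 left out as well the counts were 573 (4.6%) and 440 (3.53%). The 80 genes followed across settings include genes without a call in the main fit, such as Vwf, Gp5 and Car2. With tag series as a covariate and all 45 libraries, 39 of them lost their call and 5 turned sign. The share of calls lost is thus larger than 39 of 80. The count past both thresholds was 13 (without responder library 142) to 95 (without library 166) when single mice were left out. On all 45 libraries DESeq2 called 8.72% of genes higher and 7.84% lower, and limma's voom with quality weights 4.19% and 5.2%. On TPM of the same libraries, Wilcoxon tests and limma with pseudocounts of 1 and 0.1 each called 0 of 12461 genes. Only 772, 753 and 568 of these had an unadjusted p under 0.05 in the 3 TPM fits. In edgeR an unadjusted p under 0.05 was given to 24.3% of all genes with all libraries, to 34.4% without library 166 and to 20.3% without the 7 libraries. These shares are the background for the counts of list members below.

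Several genes of RNA processing differed between the groups, by modest amounts. Srsf7 (ENSMUSG00000024097.11, chr17:80200080-80207307 of GRCm38, minus strand) encodes a serine and arginine-rich protein that guides splice site choice. Its level ranged from 10.0 to 20.2 CPM (counts per 1e6 of the TMM-scaled library) in responders, with a median of 13.9. In the 29 nonresponders other than library 166 it ranged from 16.1 to 22.9, with a median of 19.6, and library 166 had 11.7. The groups overlapped, but 10 of 15 responders lay below every one of the 29 nonresponders. The log2 fold change was -0.41 ± 0.08 (SE, 15 against 30, edgeR adjusted p = 0.00137), and -0.42 ± 0.07 without library 166 (adjusted p = 0.000315). With tag series as a covariate it was -0.36 ± 0.09 (adjusted p = 0.0273).

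Srsf1, a relative of Srsf7, had medians of 26.2 CPM in responders and 30.0 in the 29 nonresponders, and 9 responders lay below all of the latter (log2 fold change -0.24 ± 0.05, edgeR adjusted p = 0.00544). Sf3b1, which encodes a core protein of the U2 particle of the spliceosome, had medians of 95.4 and 109 CPM, with 10 responders below (log2 fold change -0.24 ± 0.05, edgeR adjusted p = 0.00492). Sf3a2, of the same particle, went the other way, with medians of 6.06 and 5.22 CPM (log2 fold change 0.25 ± 0.05, edgeR adjusted p = 0.00186). The spliceosome list did not move as a block. Among 35 tested members there were 2 higher and 6 lower calls (4 and 8 without library 166), and the median log2 fold change was -0.01, as it was over all genes tested. Their summed level was 484 to 600 CPM in responders (median 556) and 548 to 621 in the 29 nonresponders (median 595). Srsf7, Srsf1, Sf3b1 and Sf3a2 had adjusted p values of 0.00147, 0.00423, 0.0134 and 0.0129 in edgeR without the 7 libraries of low TMM factor. Srsf1 and Sf3b1 did not pass with tag series as a covariate (adjusted p = 0.0629 and 0.0767) but passed with library 166 left out as well (0.00849 and 0.0183), and Sf3a2 passed in both (0.0199 and 0.00849). With the covariate and all libraries the log2 fold changes of Srsf1 and Sf3b1 were -0.21 and -0.19.

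The genes with the smallest p values of all lie outside the rule for named genes and were chosen after their values were seen. Pus3, a pseudouridine synthase of transfer RNA, ranged from 1.34 to 2.55 CPM in responders and from 2.30 to 3.43 in the 29 nonresponders (medians 2.06 and 2.70). Pnpt1, the mitochondrial polynucleotide phosphorylase, had medians of 2.87 and 3.95 CPM. In each of these genes 11 of 15 responders lay below all 29 nonresponders. Iqsec1, an exchange factor for ARF GTPases, showed the opposite, with medians of 23.6 and 20.8 CPM and 13 of 15 responders above the highest of the 29. Library 166 had 23.2 CPM of Iqsec1. Pus3, Pnpt1 and Iqsec1 all had an edgeR adjusted p of 0.000752, with log2 fold changes of -0.35 ± 0.05, -0.39 ± 0.06 and 0.22 ± 0.04. In these 3 genes and in Srsf7, Srsf1 and Sf3b1, the same 8 responders lay outside the range of the 29 nonresponders, and 7 of the 8 had 4-digit tags. Within the tag series, the log2 fold change of Srsf7 was -0.21 among 3-digit tags and -0.55 among 4-digit tags without library 166, and that of Iqsec1 was 0.07 and 0.30.

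**Figure D1:**
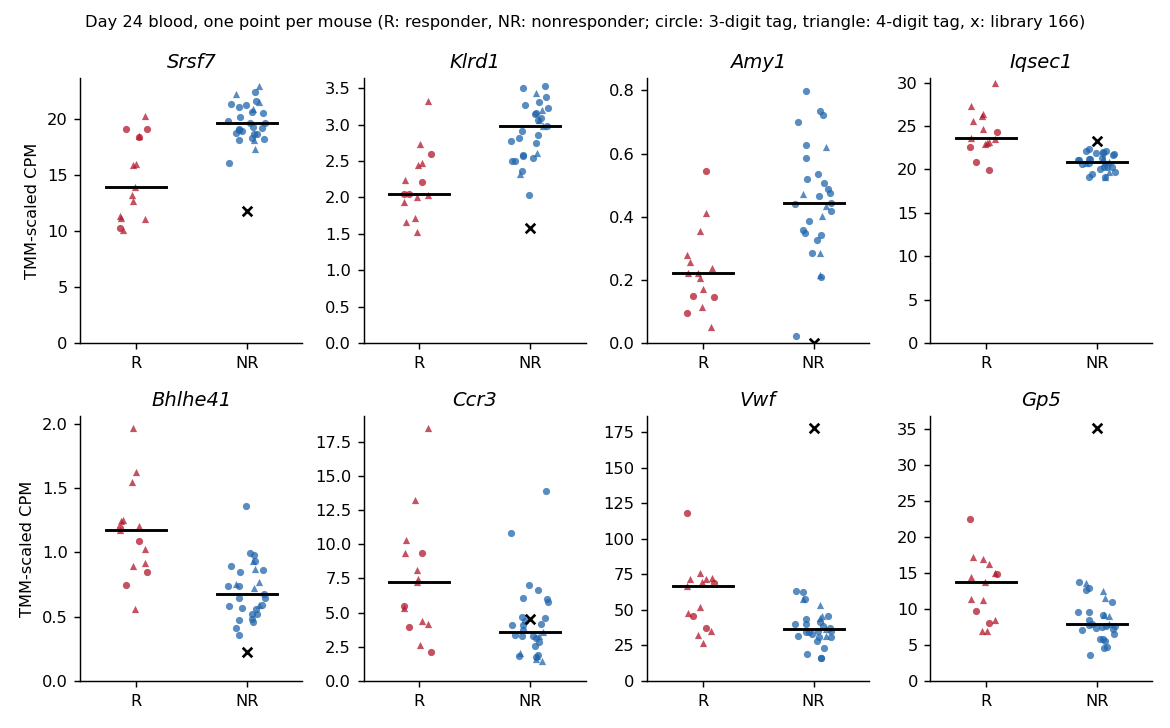
Levels of 8 genes in each Day 24 library, as TMM-scaled CPM on axes that start at 0, in responders (R, 15 mice) and nonresponders (NR, 30 mice). Points are mice, with circles for 3-digit and triangles for 4-digit ear tags, bars are medians without library 166, and the cross is library 166. For Srsf7, 10 responders sit below all nonresponders but library 166, whereas for Vwf and Gp5 library 166 sits above every other mouse.

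Some genes of NK cells and of the MHC class I pathway were also lower in responders. Klrd1 (ENSMUSG00000030165.16, chr6:129591782-129598775, plus strand) encodes CD94, the partner chain of the NKG2 receptors on NK cells and some CD8 T cells, which bind nonclassical MHC class I. It had 1.53 to 3.32 CPM in responders (median 2.05) and 2.04 to 3.53 in the 29 nonresponders (median 2.98), and library 166 had 1.58. The ranges overlapped, and a responder was the higher mouse in 12.0% of the pairs of 1 responder and 1 of the 29. The log2 fold change was -0.40 ± 0.07 (edgeR adjusted p = 0.00131), and -0.40 without the 7 libraries of low TMM factor (adjusted p = 0.00181). Within the tag series it was -0.38 (3-digit) and -0.43 (4-digit without library 166). The NK receptor list as a whole did not keep 1 direction there, with a median log2 fold change of -0.34 (1 of 19 above 0) among 3-digit tags and 0.15 (13 of 19 above 0) among 4-digit tags without library 166. Klra3, a Ly49 receptor of a gene family whose close copies may share reads, fell by 0.48 on the log2 scale (adjusted p = 0.0329), although 0.0551 without those 7 libraries. Of 19 tested NK receptor genes, 2 fell and 0 rose with all libraries, and 3 fell and 1 rose (Fcer1g) without library 166. Klrd1 kept its call with tag series as a covariate (edgeR adjusted p = 0.024) and Klra3 did not (0.175). Their log2 fold changes were then -0.39 and -0.45.

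Nlrc5, the transactivator of MHC class I genes, had medians of 17.7 CPM in responders and 21.1 in the 29 nonresponders (log2 fold change -0.25 ± 0.07, edgeR adjusted p = 0.0154). H2-T23, which encodes Qa-1, the nonclassical ligand of the receptor that CD94 forms with NKG2A, had medians of 44.1 and 48.6 CPM (log2 fold change -0.13 ± 0.04, edgeR adjusted p = 0.0263). Over the 20 class I genes 1 rose and 3 fell, or 3 and 8 without library 166. Of the class II genes, Cd74, the invariant chain that guides class II molecules, rose by 0.31 ± 0.09 on the log2 scale (edgeR adjusted p = 0.0229), and it was 1 of 2 called among 16. Without library 166, 6 of 16 were higher and 1 (H2-Ob) was lower. Without the 7 libraries of low TMM factor, Cd74 had an adjusted p of 0.0784 in edgeR, whereas Nlrc5 and H2-T23 had 0.0281 and 0.0394. Adjusted for tag series, Cd74, Nlrc5 and H2-T23 had edgeR adjusted p values of 0.0915, 0.144 and 0.075. Their log2 fold changes were then 0.32, -0.20 and -0.14.

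All 20 genes of the platelet list had log2 fold changes above 0 with all 45 libraries, without library 166 and without the 7 libraries of low TMM factor, but which of them were called rested on the libraries used. With tag series as a covariate 19 of 20 were above 0, and among 4-digit tags with library 166 kept several were below 0 (Vwf -0.17, Gp5 -0.11, Itga2b -0.33). Platelets are fragments of megakaryocytes that carry RNA for adhesion receptors and granule proteins. Vwf (ENSMUSG00000001930.17, chr6:125546774-125686679, plus strand) encodes von Willebrand factor, which tethers platelets to a damaged vessel wall. It ranged from 26.6 to 118 CPM in responders (median 66.8) and from 15.8 to 63.4 in the 29 nonresponders (median 36.5), and 8 responders lay above all of the 29. Library 166, at 178 CPM, lay above every other mouse. The log2 fold change was 0.48 ± 0.20 with all libraries (edgeR adjusted p = 0.122), 0.65 ± 0.16 without library 166 (adjusted p = 0.0036) and 0.48 ± 0.15 without the 7 libraries of low TMM factor (adjusted p = 0.0621).

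Gp5 (ENSMUSG00000047953.7, chr16:30307685-30310779, minus strand), a subunit of the receptor for that factor, had medians of 13.7 CPM in responders and 7.85 in the 29 nonresponders, and 35.2 in library 166. Its log2 fold change was 0.50 ± 0.18 (edgeR adjusted p = 0.0634), and 0.60 ± 0.15 without library 166 (adjusted p = 0.00441). Itga2b and Itgb3, which encode the fibrinogen receptor, had medians of 175 and 68.8 CPM in responders and of 105 and 44.5 in the 29 nonresponders. Among the granule chemokines, Pf4 had medians of 55.6 and 40.8 CPM and Ppbp of 150 and 94.0. With all 45 libraries 0 of 20 platelet genes were called in edgeR (10 at an unadjusted p under 0.05). On the same libraries 0 were called in DESeq2 and 12 in limma's voom with quality weights (median log2 fold change 0.47). In edgeR the median was 0.37, against -0.01 over all genes. Without library 166, 19 of 20 rose, with a median of 0.54. Without the 7 libraries of low TMM factor 0 of 20 were called in edgeR (16 at an unadjusted p under 0.05) and the median was 0.37. With tag series as a covariate and library 166 left out, 6 rose.

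The summed level of the 20 platelet genes was 605 to 2119 CPM in responders (median 1351) and 413 to 1357 in the 29 nonresponders (median 819), and 3742 in library 166. The 4 responders with low TMM factors had the highest sums of all responders, and the 2 nonresponders with low factors had the highest of the 29. The part of the TMM factor in the platelet result was not tested beyond the selection without these libraries. Within the tag series, the list's median log2 fold change was 0.69 among 3-digit tags and 0.24 among 4-digit tags without library 166.

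**Figure D2:**
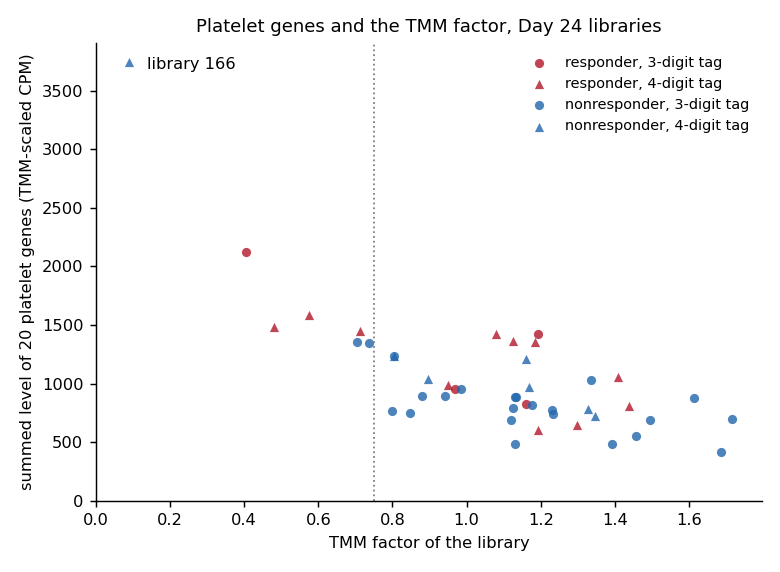
Summed level of 20 platelet genes (TMM-scaled CPM) against the TMM factor of each Day 24 library, with responders in red and nonresponders in blue, circles for 3-digit and triangles for 4-digit ear tags, and a dotted line at a factor of 0.75. Library 166 (factor 0.0893, 3742 CPM) lies at the top left, and 4 of the 6 other libraries left of the line are responders.

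Outside the platelet list, Gfi1b, F5 and Pcyt1b were called with all libraries. Gfi1b, a transcriptional repressor needed for red cell and megakaryocyte formation, ranged from 0.420 to 1.80 CPM in responders (median 0.982) and from 0.303 to 1.08 in the 29 nonresponders (median 0.668). It rose by 0.59 ± 0.14 on the log2 scale (edgeR adjusted p = 0.00755), and by 0.53 without the 7 libraries (adjusted p = 0.0184). The adjusted p values of Gfi1b, F5 and Pcyt1b were 0.0694, 0.206 and 0.224 with tag series as a covariate (edgeR). The log2 fold changes of Gfi1b and F5 were then 0.57 and 0.41. F5, coagulation factor V, which platelets store, had medians of 63.9 and 38.6 CPM (log2 fold change 0.51 ± 0.16, edgeR adjusted p = 0.0379), and 0.0259 was its adjusted p without the 7 libraries. Slc6a4, the serotonin transporter through which platelets load serotonin, had medians of 16.4 and 9.05 CPM and passed only without library 166 (log2 fold change 0.63 ± 0.15, edgeR adjusted p = 0.00389, and 0.0537 without the 7 libraries). Pcyt1b, an enzyme of phosphatidylcholine synthesis, had medians of 2.32 and 1.48 CPM and rose by 0.56 ± 0.16 (edgeR adjusted p = 0.027), with an adjusted p of 0.0106 without the 7 libraries.

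Stretches of 150 bases before the start of 3 of these genes and of the eosinophil receptor gene Ccr3 are shown, since GATA and ETS factors are known regulators of megakaryocyte genes and GATA factors of eosinophil genes. With all 45 libraries Gfi1b and Ccr3 were called and Gp5 and Itga2b were not, whereas all 4 were called without library 166. The sequences are from RefSeq (GRCm38.p6), 5′ to 3′ on the strand of the gene, and capitals mark matches to AGATAA or its reverse TTATCT (the GATA motif searched) and to AGGAAG or its reverse CTTCCT (the ETS motif searched). The positions are chr16:30310782-30310931 (minus) for Gp5, chr11:102469884-102470033 (minus) for Itga2b, chr2:28621983-28622132 (minus) for Gfi1b and chr9:124021821-124021970 (plus) for Ccr3.
Gp5: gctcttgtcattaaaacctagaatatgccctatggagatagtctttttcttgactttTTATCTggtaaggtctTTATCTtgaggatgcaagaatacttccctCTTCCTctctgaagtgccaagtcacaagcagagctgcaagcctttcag
Itga2b: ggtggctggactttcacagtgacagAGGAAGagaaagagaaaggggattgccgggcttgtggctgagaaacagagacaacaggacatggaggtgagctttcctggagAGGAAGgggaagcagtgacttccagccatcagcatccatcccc
Gfi1b: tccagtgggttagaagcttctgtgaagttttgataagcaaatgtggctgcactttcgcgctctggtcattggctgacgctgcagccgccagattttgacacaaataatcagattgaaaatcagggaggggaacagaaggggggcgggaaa
Ccr3: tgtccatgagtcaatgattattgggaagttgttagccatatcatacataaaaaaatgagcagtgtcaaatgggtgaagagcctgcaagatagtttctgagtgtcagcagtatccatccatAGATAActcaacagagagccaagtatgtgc

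In Gp5 the GATA letters started 93 and 77 bases and the ETS letters 48 bases before the start, and in Itga2b the ETS letters started 125 and 43 bases before it. In Ccr3 the GATA letters started 30 bases before the start, and in Gfi1b neither set of searched letters was found in this window. Other forms of the GATA motif were not searched. The Gfi1b stretch holds TGATAA, and those of Gp5 and Ccr3 also hold AGATAG. Of 32851 promoters in the table, 5.65% held the GATA letters in this window and 19.7% the ETS letters. Among the 15 of 20 platelet genes with an entry, 3 held the former and 7 the latter. Among the 73 matched genes that were higher past both thresholds without library 166, 7 held the GATA and 12 the ETS letters. A match is a description of the letters and not a bound site.

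Eosinophils and basophils are granulocytes of allergic and parasite defense, and both carry the eotaxin receptor CCR3. Ccr3 (ENSMUSG00000035448.9, chr9:124021972-124031689, plus strand) ranged from 2.14 to 18.5 CPM in responders (median 7.24) and from 1.47 to 13.9 in the 29 nonresponders (median 3.55), with 4.51 in library 166. The groups overlapped widely, and the responder was higher in 76.3% of the pairs. It rose by 0.81 ± 0.24 on the log2 scale, with and without library 166 (edgeR adjusted p = 0.0311 and 0.0146). Ear1, an eosinophil ribonuclease of a family whose copies may share reads, had medians of only 0.330 and 0.177 CPM (log2 fold change 1.34 ± 0.39, edgeR adjusted p = 0.027). Gata2, a transcription factor of basophils, mast cells and progenitors, had medians of 2.25 and 1.51 CPM (log2 fold change 0.47 ± 0.15, edgeR adjusted p = 0.041).

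Cebpe, a factor of late granulocyte maturation on which eosinophils and neutrophils depend, had medians of 0.870 and 0.422 CPM. It rose by 0.93 ± 0.24 on the log2 scale (edgeR adjusted p = 0.012). With tag series as a covariate the log2 fold change was 0.85 (edgeR adjusted p = 0.142). Among 3-digit tags this was 0.07 and among 4-digit tags 1.46. Alox15, a lipoxygenase of eosinophils, had medians of 4.57 and 2.85 CPM and an adjusted p of 0.0623, or 0.0309 without library 166. Siglecf, the eosinophil surface lectin, had medians of 2.53 and 1.35 CPM and an adjusted p of 0.0938 in edgeR. Of 13 tested genes of the basophil and eosinophil list 3 rose, 5 without library 166 and 0 of 14 without the 7 libraries of low TMM factor (edgeR, 8 at an unadjusted p under 0.05). With tag series as a covariate 0 of 13 were called, and Ccr3 had an adjusted p of 0.0827 (edgeR) at a log2 fold change of 1.05. All 13 were then above 0. Leaving out library 166 as well, 2 of 13 were called, Ccr3 among them (adjusted p = 0.0386). The list's median log2 fold change was 0.33 with all libraries, 0.33 without library 166 and 0.38 without the 7 libraries. With the covariate it was 0.62, with or without library 166. Among mice with 4-digit tags the median was 1.00 without library 166, and among those with 3-digit tags, of which 4 were responders, it was -0.03. For Ccr3 the log2 fold changes were 1.85 and 0.12 in these series. The interaction of tag series with response was called for 1 gene of those tested, which was Atf5, and for 0 without library 166 (edgeR, 1046 at an unadjusted p under 0.05). This test was made gene by gene and not on the list medians, so it cannot decide about the gap between them. It also rested on 4 responders with 3-digit tags and, library 166 included, 7 nonresponders with 4-digit tags.

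**Figure D3:**
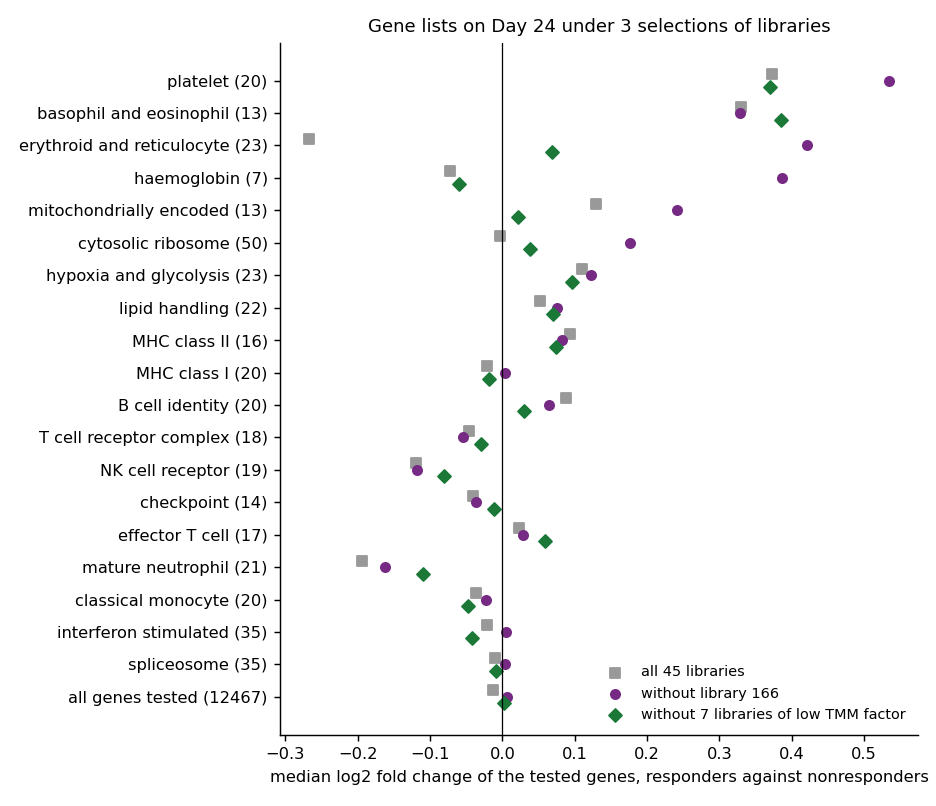
Median log2 fold change (responders against nonresponders) of the tested genes of 19 gene lists and of all genes tested, with the number of genes in brackets, under 3 selections of Day 24 libraries: all 45 (squares), without library 166 (circles) and without the 7 libraries of low TMM factor (diamonds). The platelet and the basophil and eosinophil lists stay near or above 0.33 in each, whereas the erythroid list moves from -0.27 to 0.42 and 0.07.

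The direction of red cell genes depended on library 166 and on the method. The erythroid list's median log2 fold change was -0.27 in edgeR with all libraries, but 0.41 in DESeq2 and 0.21 in voom. Without library 166 it was 0.42 in edgeR, with 0.57 among 3-digit tags and 0.34 among 4-digit tags. Without the 7 libraries it was 0.07. With tag series as a covariate it was -0.47, and 0.44 with library 166 left out as well. Car2, carbonic anhydrase 2, had medians of 117 CPM in responders and 87.9 in the 29 nonresponders, but 2977 in library 166. Its log2 fold change was -0.37 ± 0.44 with all libraries (edgeR adjusted p = 0.669), 0.68 ± 0.15 without library 166 (adjusted p = 0.00189) and 0.30 ± 0.12 without the 7 libraries (adjusted p = 0.142). Tmod1 and Tspan33, both also expressed in red cell precursors, had log2 fold changes of 0.21 and 0.12 with all libraries in edgeR, and of 0.65 and 0.59 without library 166. DESeq2 on all 45 libraries called Car2, Tmod1 and Tspan33 higher, at 0.66, 0.66 and 0.58. Of 23 erythroid genes, 0 were called with all libraries (edgeR, 0 at an unadjusted p under 0.05, and 11 in DESeq2), 12 rose without library 166, and 0 were called without the 7 libraries (3 at an unadjusted p under 0.05).

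The counts of the ribosomal and mitochondrial lists changed with the libraries and with the method. Of 50 cytosolic ribosomal protein genes 3 rose with all libraries and 23 without library 166, and 0 were called without the 7 libraries (edgeR, 4 at an unadjusted p under 0.05). Of 13 mitochondrially encoded genes the counts were 2, 7 and 0 (0 at an unadjusted p under 0.05). On all 45 libraries DESeq2 called 11 of the ribosomal and 6 of the mitochondrial genes, and voom 0 of each. With tag series as a covariate and library 166 left out, 17 and 1 were called (edgeR).

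Some glycolysis genes rose with all libraries, without library 166 and without the 7 libraries of low TMM factor. Aldoa, which encodes the aldolase of glycolysis, ranged from 33.4 to 58.9 CPM in responders (median 40.2) and from 29.6 to 41.3 in the 29 nonresponders (median 34.3). Its log2 fold change was 0.28 ± 0.07 (edgeR adjusted p = 0.00952), and 0.22 ± 0.05 without the 7 libraries (adjusted p = 0.0106). Pgk1, phosphoglycerate kinase, had medians of 14.1 and 12.4 CPM (log2 fold change 0.20 ± 0.05, edgeR adjusted p = 0.012), and the responder was higher in 88.5% of the pairs with the 29. Among 3-digit tags the log2 fold changes of Aldoa and Pgk1 were 0.28 and 0.26. Among 4-digit tags they were 0.19 and 0.11, or 0.33 and 0.21 without library 166. Of 23 genes of the hypoxia and glycolysis list, 5 rose and 0 fell, 11 rose without library 166, 4 without the 7 libraries, 1 with tag series as a covariate and 9 with this covariate and library 166 left out. Aldoa and Pgk1 had adjusted p values of 0.102 and 0.0876 with the covariate, and 0.00849 each with library 166 left out as well (edgeR). With the covariate and all libraries their log2 fold changes were 0.23 and 0.19. Within either tag series 0 of 23 were called, library 166 left out, where 0% of all genes (3-digit tags) and 0.258% (4-digit tags) were called. Their median log2 fold change was 0.11 with all libraries.

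Tgfb1, the cytokine TGF-beta 1, which platelets and leukocytes both hold, had medians of 28.1 CPM in responders and 23.2 in the 29 nonresponders, and 9 of 15 responders lay above all of the 29. It rose by 0.31 ± 0.07 on the log2 scale (edgeR adjusted p = 0.004), and by 0.24 without the 7 libraries (adjusted p = 0.00775). Its log2 fold change was 0.25 with tag series as a covariate (edgeR adjusted p = 0.0694). Lipid genes had 5 of 22 members higher, among them Abcg1, a cholesterol exporter (medians 11.7 and 10.3 CPM, log2 fold change 0.20 ± 0.05, edgeR adjusted p = 0.00861), and Scd1, a fatty acid desaturase (medians 60.5 and 52.4 CPM, adjusted p = 0.0232). Without library 166, 6 rose and 1 fell (Plin2), without the 7 libraries 2 of 22 rose, and with tag series as a covariate 0 were called, with or without library 166 (edgeR).

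The genes that passed both thresholds with all libraries were mostly expressed near or below 1 CPM. Bhlhe41 (ENSMUSG00000030256.11, chr6:145858243-145865558, minus strand), a repressor of the clock family that B-1 cells need, ranged from 0.559 to 1.97 CPM in responders (median 1.18) and from 0.355 to 1.36 in the 29 nonresponders (median 0.675). It rose by 0.70 ± 0.13 on the log2 scale (edgeR adjusted p = 0.00154), and by 0.58 without the 7 libraries (adjusted p = 0.0156). With tag series as a covariate its adjusted p was 0.0541 in edgeR, at a log2 fold change of 0.59. Loxl1, an enzyme that crosslinks elastin, and Lyve1, a hyaluronan receptor of lymphatic endothelium and some macrophages, had medians of 0.528 and 0.416 CPM in responders and of 0.239 and 0.230 in the 29 nonresponders. Their log2 fold changes were 0.90 ± 0.20 and 0.73 ± 0.17 (edgeR adjusted p = 0.00539 and 0.00586). Sema7a, a semaphorin anchored in the membrane by a lipid, had medians of 2.07 and 1.42 CPM (log2 fold change 0.59 ± 0.15, edgeR adjusted p = 0.0122). Loxl1, Lyve1 and Sema7a had edgeR adjusted p values of 0.161, 0.0601 and 0.122 with this covariate. Their log2 fold changes were then 0.53, 0.69 and 0.54.

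Of the other genes among the 12 with the smallest p, Asb2, Proser2, Oit3, Enah and Nbea rose by 0.59 to 0.90 on the log2 scale, with medians of 0.220 to 1.27 CPM in responders. Alpl, alkaline phosphatase, ranged from 0.0666 to 2.65 CPM in responders and from 0 to 1.12 in the 29 nonresponders and rose by 1.31 ± 0.37 (edgeR adjusted p = 0.0232), with 0.222 as its adjusted p without the 7 libraries. All 6 lost their call with tag series as a covariate (edgeR adjusted p from 0.0846 for Oit3 to 0.311 for Alpl). The log2 fold changes of Asb2, Proser2, Oit3, Enah and Alpl were then 0.59, 0.59, 0.66, 0.69 and 0.88. Without the covariate they were 0.85, 0.66, 0.62, 0.90 and 1.31.

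Of the 13 lowered genes, 7 were predicted or unnamed transcripts. Amy1 (ENSMUSG00000074264.12, chr3:113555710-113606699, minus strand), an amylase of the salivary gland and liver with close gene copies, ranged from 0.0497 to 0.544 CPM in responders (median 0.220) and from 0.0225 to 0.798 in the 29 nonresponders (median 0.443). It fell by 0.95 ± 0.22 on the log2 scale (edgeR adjusted p = 0.00739), and by 0.97 without the 7 libraries (adjusted p = 0.00873). Within the tag series the log2 fold change was -0.89 (3-digit) and -0.84 (4-digit without library 166). With tag series as a covariate it was -0.84 (edgeR adjusted p = 0.0795). Ceacam16, Piwil2 and Il20rb had medians of 0.0913, 0.117 and 0.0999 CPM in responders, which is a few counts per library, and of 0.195, 0.223 and 0.175 in the 29 nonresponders. Their adjusted p values were 0.0218, 0.0281 and 0.0349 in edgeR, and 0.191, 0.224 and 0.178 with tag series as a covariate. The log2 fold changes were -0.74, -0.87 and -0.60 without this covariate and -0.57, -0.66 and -0.54 with it. Atf5, a stress transcription factor, had the largest fold, and it was set by 1 mouse. Library 166 held 738 CPM, against 1.38 to 4.46 in the 29 nonresponders and 1.75 to 5.55 in responders, and the log2 fold change went from -2.87 ± 0.91 (edgeR adjusted p = 0.0409) to 0.31 ± 0.14 without it (adjusted p = 0.105).

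Lymphocyte genes to which the study gives weight were compared at this time point irrespective of their values. Cxcr3 and Cxcr6, the chemokine receptors of effector T cells, had medians of 1.67 and 1.47 CPM in responders and of 1.55 and 1.48 in the 29 nonresponders, with log2 fold changes of 0.06 ± 0.08 and 0.02 ± 0.08. Nkg7 and Gzmb, of cytotoxic granules, had log2 fold changes of -0.03 ± 0.06 and -0.09 ± 0.12, and Tbx21 and Cx3cr1, of effector cells, of 0.19 ± 0.10 and 0.19 ± 0.11. The ranges of the groups overlapped almost fully, and the adjusted p values ran from 0.218 for Tbx21 to 0.913 for Cxcr6 (edgeR). Of 17 effector T cell genes 1 was called, Zeb2, with medians of 16.5 and 14.4 CPM (log2 fold change 0.16 ± 0.04, edgeR adjusted p = 0.0132). With tag series as a covariate its log2 fold change was 0.09 (edgeR adjusted p = 0.253).

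Of the B cell identity list 0 of 20 genes were called with all libraries in edgeR (5 at an unadjusted p under 0.05, 17 above 0) and 1 in DESeq2, and 4 rose without library 166. Cd22, an inhibitory receptor of B cells, and Ms4a1, which encodes CD20, had log2 fold changes of 0.02 ± 0.08 and 0.18 ± 0.08 (edgeR adjusted p = 0.922 and 0.179). Cd79a and Cd79b, the signaling chains of the B cell receptor, had medians of 101 and 79.3 CPM in responders and of 95.4 and 72.7 in the 29 nonresponders. They were called without library 166 (log2 fold changes 0.18 ± 0.05 and 0.16 ± 0.05, edgeR adjusted p = 0.0114 and 0.0189) but not without the 7 libraries (adjusted p = 0.25 and 0.198). Ighg3, an immunoglobulin constant region gene, rose by 0.55 ± 0.14 (medians 0.782 and 0.547 CPM, edgeR adjusted p = 0.0147). With tag series as a covariate its log2 fold change was 0.28 (edgeR adjusted p = 0.342).

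Among checkpoint genes Ctla4, the inhibitory receptor of activated and regulatory T cells, fell by 0.34 ± 0.11 on the log2 scale (medians 0.717 and 0.872 CPM, edgeR adjusted p = 0.0465). Its edgeR adjusted p was 0.166 without the 7 libraries. With tag series as a covariate it was 0.146, at a log2 fold change of -0.34. Pdcd1, the gene of PD-1 itself, had medians of 0.162 and 0.166 CPM and an adjusted p of 0.615. Of the T cell receptor complex list 0 of 18 genes were called, with and without library 166 (edgeR, 4 and 6 at an unadjusted p under 0.05, and 0 in DESeq2). Of the classical monocyte list 0 of 20 were called in edgeR (4 at an unadjusted p under 0.05) and 2 in DESeq2. Of 21 mature neutrophil genes 0 were called with all libraries (edgeR, 4 at an unadjusted p under 0.05, and 2 in DESeq2), and 1 fell without library 166, Clec4e.

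The Day 24 differences were then set beside those of the earlier bleeds, which came from other libraries of the same mice. Day 4 lies before treatment. At the adjusted p alone, 808 genes were higher in responders on Day 4 (6.4% of those tested) and 128 lower (1.01%). On Day 9 there were 1189 (9.43%) and 498 (3.95%), and on Day 17 there were 127 (1.01%) and 161 (1.29%). Day 17 had 0 calls with tag series as a covariate (edgeR, 1121 genes at an unadjusted p under 0.05). Of the erythroid list 19 of 23 tested genes were higher on Day 4, 23 of 24 on Day 9 and 0 of 23 on Day 17, at medians of 1.11, 0.91 and 0.24 on the log2 scale, against 0.42 on Day 24 without library 166. The platelet list had 0, 10 and 1 of 20 genes called on these days, with medians of 0.40, 0.36 and 0.22. Its median was thus above 0 at each bleed, before treatment included. Srsf7 had log2 fold changes of -0.19, -0.11 and 0.10 on Days 4, 9 and 17, and Klrd1 of -0.12, -0.01 and -0.02.

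**Figure D4:**
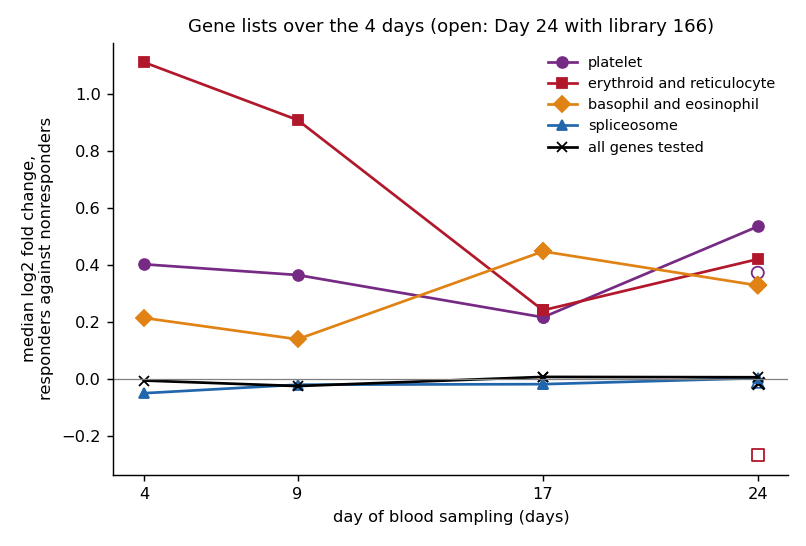
Median log2 fold change (responders against nonresponders) of 4 gene lists and of all genes tested, by day of bleeding (Day 4 before treatment, then Days 9, 17 and 24). Filled points on Day 24 leave out library 166 and open points include it, and the erythroid list runs from 1.11 on Day 4 to 0.42 or -0.27 on Day 24.

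Whether the response difference on Day 24 differed from that on Day 4 was tested as an interaction over 89 libraries. It was called for 75 of 13082 genes, 56 with a higher difference on Day 24 (0.428%) and 19 with a lower one (0.145%). In the paired analysis, with the mouse as a replicate block, 28 genes were called, of which 25 were among the 75. Of the 75, 3 also passed both thresholds on Day 24: Bhlhe41, Alpl and Atf5, of which Atf5 had an adjusted p of 0.626 without library 166 and 0.669 with the block. The interaction of Bhlhe41 was 0.77 on the log2 scale (edgeR adjusted p = 0.0256, and 0.0392 with the block). Iqsec1 had an interaction of 0.32 (edgeR adjusted p = 0.015). Of the platelet, erythroid, spliceosome and basophil and eosinophil lists 0 genes were called in this test (edgeR). An unadjusted p under 0.05 was given to 0 of 20, 18 of 24, 4 of 35 and 3 of 14 of their genes, against 15.8% of all genes. Calls were made in 6 other lists, with 2 of 21 in the mature neutrophil list (both lower on Day 24 relative to Day 4, 16 at an unadjusted p under 0.05), 2 of 20 in the classical monocyte list (both lower, 13), 2 of 25 in the innate sensing list and 1 in each of the other 3. With the mouse as a block, 1 gene was called in each of the mature neutrophil, classical monocyte and innate sensing lists (edgeR). The chemokine and cytokine ligand list had 1 call, and the neutrophil precursor and proliferation lists had 0. Since some genes belong to more than 1 list, the list calls of the block fit can repeat a gene. In this fit an unadjusted p under 0.05 was given to 15 of 21 mature neutrophil, 13 of 20 classical monocyte and 14 of 25 innate sensing genes. It was given to 9 of 24 erythroid genes, and to 1849 of 13075 over all genes.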

How the data were processed

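Per the labels, the authors bled mice into TRIzol and made polyA libraries with the SMARTer kit, and their processing notes name STAR and mm10; the counting tool is not given in the sources used here. They deposited expected counts per gene (3.14% of values not whole, here rounded) and TPM. All columns were used. Gene positions are from GENCODE M21 (GRCm38), whose identifiers match the files. The members and gene lists were chosen with earlier results of these data known.

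Tests used edgeR 4.0.16 (R 4.3.3; filterByExpr, TMM, quasi-likelihood F test, Benjamini-Hochberg over the genes tested), with calls at an adjusted p of 0.05 and, where stated, a fold of 1.5. Standard errors were derived from the F statistic. Alternatives used DESeq2 1.42.0, limma 3.58.1 (voom with quality weights, or log2(TPM + 1) and log2(TPM + 0.1)), Wilcoxon tests on TPM, other count filters, tag series and single mice left out. Library measures used two-sided permutation tests with 100000 resamples over 6 measures. In simulated data for the Day 24 comparison (12377 genes), 96% of genes changed by 1 on the log2 scale were recovered. For the interaction it was 92%, and 4.43% and 2.58% of the calls were false. Changes smaller than 1, as most reported here are, were not simulated, so their recovery is not known.

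Described genes were the 12 with the smallest p per direction past both thresholds, 8 per direction without library 166, up to 3 called members per list and direction, and genes fixed by name; predicted and unnamed genes, and an entry that shares the symbol Ggnbp1, were counted only, and some named items are not reported here. Further list members were named after their values were seen. The selection without the 7 libraries of TMM factor under 0.75 was also chosen after seeing the data. So were that without library 166 among 4-digit tags and those of single mice besides library 166. The list counts by voom, and those with tag series and library 166 left out, were likewise chosen then. List counts with tag series as a covariate on all libraries were planned. Lists were described by counts and medians, for 38 lists, with no test over a list. No 2 Day 24 libraries held identical values. Each Day 24 library is 1 mouse, so p-values measure the spread between mice. Day 4 and Day 24 libraries with the same ear tag come from 1 animal. The correlation of their deviations from the group means ranged from -0.33 to 0.63 over 44 mice (median 0.0888). The Day 17 library of 1 mouse with conflicting response labels was left out.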

Additional observations from a re-analysis of the deposited data

Results flagged for a closer look

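The response difference on Day 24 differed from that on Day 4 for 75 genes by the interaction test. Of the epithelial and tumor list 0 of 12 tested genes were called in it (edgeR, 4 at an unadjusted p under 0.05). Other epithelial genes, outside this list and chosen after their values were seen, were called, among them Muc1, Prss8, Upk1b and Cldn23. Their log2 fold changes were -1.95, -2.63, -2.21 and -2.71 on Day 4, and 0.67, 0.65, 0.74 and 0.52 on Day 24. The mucin gene Muc4 had an interaction of 3.42 on the log2 scale, Plet1 of 3.48, the nucleoside transporter gene Slc28a3 of 4.65, Alpl of 2.80 and Il1a of 3.01. For Muc4 and Plet1 the log2 fold changes were -2.35 and -2.32 on Day 4 and 0.95 and 1.04 on Day 24, where the edgeR adjusted p values were 0.0731 and 0.0549. Without library 166 they were 0.0429 and 0.0284, in DESeq2 0.0401 and 0.0294, and without the 7 libraries of low TMM factor 0.576 and 0.555. On Day 24 Muc4 ranged from 1.38 to 23.2 CPM in responders and from 0.418 to 12.3 in the 29 nonresponders. Beside it, the summed level of 19 eye and skin genes ranged from 0.391 to 15.4 CPM in responders and from 0.306 to 14.4 in those nonresponders, and that of 25 epithelial and tumor genes from 28.0 to 53.9 and from 24.3 to 47.3. The part of such cells in these results was not tested. With the mouse as a replicate block, the adjusted p was 0.0816 for Muc4 and Plet1, 0.161 for Il1a, 0.0392 for Slc28a3 and 0.0499 for Alpl.

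Bhlhe41 had an interaction of 0.77. Il1b and Clec4e, myeloid genes of inflammation, had interactions of -0.92 and -0.87. Their edgeR adjusted p values were 0.0358 and 0.0415, and 0.0499 and 0.0769 with the block. Atf5 was the only gene called for a difference between the tag series in its response difference, at -5.53 on the log2 scale, and library 166, at 738 CPM, is a 4-digit nonresponder. Without it 0 genes were called (edgeR).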

How the results depend on the processing

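The 37 genes called on Day 24 became 95 without library 166, 61 in DESeq2, 5 with at least 10 counts in every library, 3 with tag series as a covariate, 9 without the 7 libraries of low TMM factor and 1066 by the adjusted p alone. Among 4-digit tags alone, among 3-digit tags alone, in the Wilcoxon test on TPM and in limma on TPM with either pseudocount 0 were called (1736, 1886, 772, 753 and 568 at an unadjusted p under 0.05), and 10 among 4-digit tags without library 166. The genes tested numbered 12307 among 4-digit tags alone, 13000 among 3-digit tags alone and 12461 in each TPM fit. Leaving out single mice gave 13 (library 142) to 95 (library 166), with 20 without library 137, 23 without 145, 59 without 146, 60 without 147 and 63 without 141. With library 166 out as well it gave 40 (library 142) to 165 (library 141), with 46 without 145 and 55 without 144. Voom with quality weights, at least 1 count in any library, haemoglobin removed before scaling, and tag series with library 166 left out gave counts within 1.5 times of 37. No fit with sex as a covariate was run, since all libraries were called female, against the methods.

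The 75 interaction genes became 28 with the mouse as a replicate block, 41 with the block and without library 166, and 48 at a fold of 1.5. The paired analysis, the Day 24 libraries being of different mice, applied only there. The tag series interaction had 1 gene and, without library 166, 0 (edgeR, 1046 at an unadjusted p under 0.05). Past both thresholds Day 4 went from 531 to 620, Day 9 from 460 to 273 and Day 17 from 52 to 0 calls (edgeR, 1121 at an unadjusted p under 0.05) with tag series as a covariate. By the adjusted p alone, Days 4, 9 and 17 had 936, 1687 and 288. List genes called became 173 without library 166, 6 with tag series, 73 with both and 25 without the 7 libraries. Platelet calls became 19 without library 166, 6 with tag series too and 12 by voom. Erythroid calls became 12, 6 and 2 in the same order. Basophil and eosinophil calls became 5 without library 166, 0 with tag series, 2 with both, 1 by voom and 0 without the 7 libraries.

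Log2 fold changes of named genes turned sign among 3-digit tags alone for Siglecf (-0.068), Car2 (0.66), Epb42 (0.61), Atf5 (0.47), Abcg1 (-0.0069), Cd22 (-0.033), Cxcr3 (-0.16), Cxcr6 (-0.080), Cx3cr1 (-0.083), Tbx21 (-0.14) and Asb2 (-0.067). They turned among 4-digit tags alone for Vwf (-0.17), Itgb3 (-0.37), Gp5 (-0.11), Gp1ba (-0.036), Gp9 (-0.48), Itga2b (-0.33), Pf4 (-0.24), Ppbp (-0.19), Slc6a4 (-0.33), Nkg7 (0.14), Cx3cr1 (-0.022), Gzmb (0.15), Nbea (-0.042), Tmod1 (-1.11) and Tspan33 (-0.90). They turned in DESeq2 for Car2 (0.66), Epb42 (0.62) and Atf5 (0.32). They turned without library 166 for Car2 (0.68), Epb42 (0.63), Atf5 (0.31) and Cd22 (-0.0051). They turned in limma on log2(TPM + 1) for Car2 (0.26), Epb42 (0.19), Cd22 (-0.10), Cxcr3 (-0.033), Cxcr6 (-0.037), Zeb2 (-0.0034) and Oit3 (-0.016). They turned with tag series as a covariate for Cxcr6 (-0.032), Nkg7 (0.029), Cx3cr1 (-0.044), Tmod1 (-0.079) and Tspan33 (-0.14). Removing haemoglobin before scaling changed the direction or the call of 0 of the 80 named genes tested. The cause of these changes was not tested. Genes near or below 1 CPM rest on few counts in library 166.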
